A study of Mus musculus with 12 samples.

Results

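Insulin-like growth factor 1 (IGF1) and insulin act on muscle through a short chain of proteins, and 10 genes of that chain were followed here: the ligand Igf1, the receptors Igf1r and Insr, the receptor adaptors Irs1 and Irs2, and the binding proteins Igfbp3, Igfbp4, Igfbp5, Igfbp6 and Igfbp7. They were chosen by gene symbol, and all 10 were found among the 23923 genes of the deposited files. All 10 also passed the filter on low values, and none was listed at 0 in any mouse. RNA was sequenced from the tibialis anterior, a fast-twitch leg muscle, of 12 mice aged 6 weeks on the C57BL6/J;129S1/SvImJ background, with 6 mice in each group and 1 library per mouse. Controls were Myf6 cre/+; Smyd1 flox/+ and conditional knockouts (CKOs) were Myf6 cre/+; Smyd1 flox/-, and by the study's methods both groups also carried Rosa26 YFP/+. Smyd1 encodes a methyltransferase of striated muscle. Cre was expressed from the Myf6 locus, which is active in muscle fibers, so controls lost 1 Smyd1 copy in fibers and kept the wild-type copy, whereas CKOs lost the floxed copy in fibers and had a null copy in every cell. The labels give no sex, but the study's text says that its later experiments, among which RNA sequencing is described, used male tissue. The litter of each mouse is not given in the sources used here.

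IGF1 is made by the liver and by muscle itself, where growth hormone raises its transcription, and it promotes fiber growth. IGF1 and insulin bind related receptor tyrosine kinases, which pass the signal to the IRS adaptors and from there to PI3-kinase, AKT and mTOR, the branch that raises protein synthesis, and to RAS and ERK. AKT also keeps FoxO transcription factors out of the nucleus and releases the glucose transporter vesicles. IGF binding proteins are secreted, hold most IGF outside the cell, and can restrain or prolong its action. The values here are transcript levels, and neither proteins nor their phosphorylation were measured in these files.

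Levels are FPKM, that is, fragments scaled to the length of the transcript and the size of the library. The 2 groups were contrasted in a limma fit of log2(FPKM + 0.1) over 12695 genes, with P-values adjusted over all of them and a threshold of 0.05. The read depth is unknown, and the relative depth read from the lowest FPKM steps ran from 0.984 to 1.77 of that of control 1. Fold changes in the deposited FPKM were positive for 77.9% of the genes, with a median log2 fold change of 0.18, and this median was 0.0079 after median-ratio scaling, which sets the typical gene of each library to the same level. Among all genes, 257 were higher in CKOs by adjusted P (2.02% of those tested) and 34 were lower (0.268%). By unadjusted P, 2300 were higher (18.1%) and 224 were lower (1.76%). After median-ratio scaling the split was even, with 97 higher (0.764%) and 90 lower (0.709%) by adjusted P. By unadjusted P after that scaling, 842 were higher (6.63%) and 944 were lower (7.44%). The 10 genes of fast myofibers checked against the tissue label summed to between 23505 and 39301 FPKM in every mouse. Smyd1 itself had a mean of 37.4 ± 5.64 FPKM among controls (SD, n = 6) and 34.1 ± 4.36 FPKM among CKOs, with a log2 fold change of -0.13 ± 0.12 (SE) and an adjusted P of 0.545 in limma. After median-ratio scaling this was -0.32 ± 0.083, with an unadjusted P of 0.00180 and an adjusted P of 0.0796, and after quantile normalization it was -0.23, with an unadjusted P of 0.00898 and an adjusted P of 0.186. The FPKM of the groups overlapped, and since the sources used here do not give the deleted exons, the level of the whole gene does not check the genotype labels.

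Of the 10 genes, 1 passed the adjusted threshold. Igfbp3 rose 1.64-fold in CKOs, and no gene fell. By unadjusted P, the count was also 1 higher and 0 lower, where 18.1% and 1.76% of all genes were. The median log2 fold change over the 10 genes was 0.27, against 0.18 over all genes. Of the 10, 8 were positive, close to the share of 77.9% among all genes. After median-ratio scaling the median was 0.09, against 0.0079 over all genes, and none passed the adjusted threshold. The share of all genes that were positive after that scaling was not computed. Igfbp3 was also the only one of the 10 without overlap, every CKO being higher than every control, an arrangement found for 2.23% of all genes, while 0.189% had all CKO values below the controls. As bulk tissue was sequenced, fewer cells of a type and less RNA per cell cannot be told apart in any of these values.

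**Figure D1:**
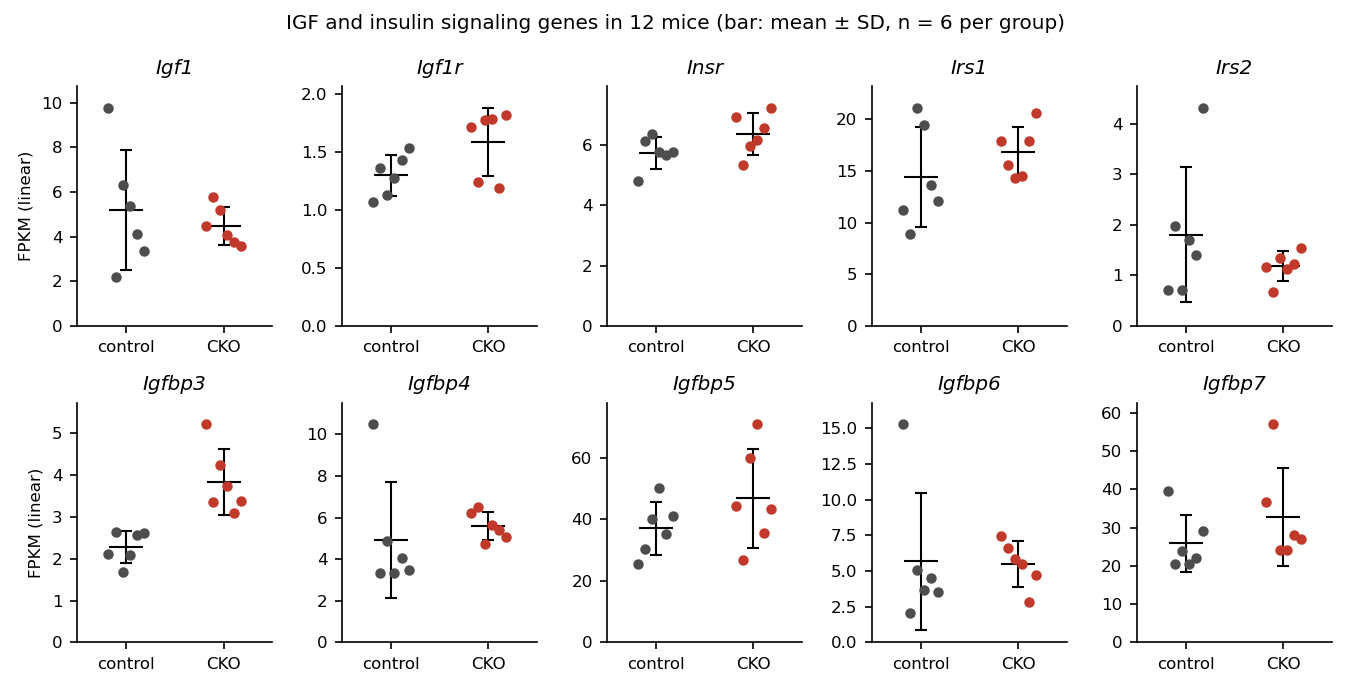
FPKM (linear vertical axes from 0) of the 10 genes in each of 6 control (grey) and 6 CKO (red) mice, with bars for the mean ± SD. The Igfbp3 values of CKOs, 3.08 to 5.21 FPKM, all lie above the controls, 1.68 to 2.63 FPKM, and the single high control point for Igf1, Igfbp4 and Igfbp6 is control 1.

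The genes differed widely in level. In controls the order of mean FPKM was Igfbp5, Igfbp7, Irs1, Insr, Igfbp6, Igf1, Igfbp4, Igfbp3, Irs2 and Igf1r, from 37.1 ± 8.68 FPKM for Igfbp5 to 1.30 ± 0.178 FPKM for Igf1r (SD, n = 6). Igfbp7 exceeded Irs1 and Irs1 exceeded Insr in all 6 controls. Insr, Igfbp6 and Igf1 had means between 5.18 and 5.75 FPKM, and the order of these neighbors changed from mouse to mouse: Igfbp6 was above Igf1 in 3 of 6 controls. Irs2 was likewise above Igf1r in 3 of 6 controls. CKOs kept the same genes in the first 4 places, and Igf1r stood above Irs2 there.

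Igf1, the ligand, was measured at 2.18 FPKM in the lowest control, with a median of 4.74 and a highest value of 9.77. In CKOs it ran from 3.56 through a median of 4.27 to 5.77 FPKM. The groups overlapped entirely, since the 6 CKO values fell inside the range of the controls. The log2 fold change was -0.07 ± 0.27 (SE), with a 95% interval of -0.65 to 0.51 and an adjusted P of 0.905 in limma. Control 1 had the highest value, and without that mouse the difference was 0.14, of the opposite sign, with an adjusted P of 0.704. Sample weights also turned the sign, to 0.06. As a fold, the interval ran from 0.636 to 1.42 times the control level.

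Igf1r, the receptor for IGF1, was a low transcript. Controls ran from 1.07 through a median of 1.32 to 1.53 FPKM, and CKOs from 1.19 through 1.74 to 1.82 FPKM. In 4 of 6 CKOs the level was above every control, while CKO 2 and CKO 5 lay within the control range. It differed by 0.26 ± 0.15 on the log2 scale (SE; adjusted P = 0.342, limma), and 0.08 after median-ratio scaling.

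Insr, the insulin receptor, ran from 4.81 through a median of 5.77 to 6.37 FPKM in controls and from 5.33 through 6.36 to 7.24 FPKM in CKOs. Its log2 fold change of 0.14 ± 0.10 (SE; adjusted P = 0.446, limma) was below the median of all genes, and it turned negative under median-ratio scaling (-0.04) and quantile normalization (-0.015). Insr was above Igf1r in all 12 mice. The balance of the receptors was compared as a ratio within each library, with 0.1 FPKM added to both levels. The log2 ratio of Igf1r to Insr was -2.07 ± 0.189 (SD, n = 6) in controls and -1.95 ± 0.244 in CKOs, a difference of 0.12 (two-sided exact permutation test, P = 0.374, adjusted over 2 ratios 0.374). With 1 FPKM added in place of 0.1 the difference was 0.041. The ranges overlapped, with -2.40 to -1.85 in controls and -2.38 to -1.70 in CKOs.

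Irs1 and Irs2 encode the docking proteins that the activated receptors phosphorylate. Irs1 ran from 8.88 through a median of 12.9 to 21.1 FPKM in controls and from 14.4 through 16.8 to 20.6 FPKM in CKOs. The CKO values lay inside the control range, above 4 of the 6 controls. Its log2 fold change was 0.28 ± 0.19 (SE; adjusted P = 0.407, limma).

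Irs2 ran from 0.713 through a median of 1.55 to 4.31 FPKM in controls and from 0.661 through 1.20 to 1.54 FPKM in CKOs. All 6 CKOs lay below the control mean of 1.80 FPKM, but that mean was drawn up by control 6, and the next highest control was 1.97 FPKM. The log2 fold change was -0.35 ± 0.35 (SE; adjusted P = 0.580, limma), and it was -0.06 without control 6. Irs1 was above Irs2 in all 12 mice. The log2 ratio of Irs1 to Irs2 was 3.12 ± 1.17 (SD, n = 6) in controls and 3.75 ± 0.350 in CKOs, a difference of 0.63 (two-sided exact permutation test, P = 0.249, adjusted over 2 ratios 0.374). The smallest P this test can give is 0.00216.

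**Figure D2:**
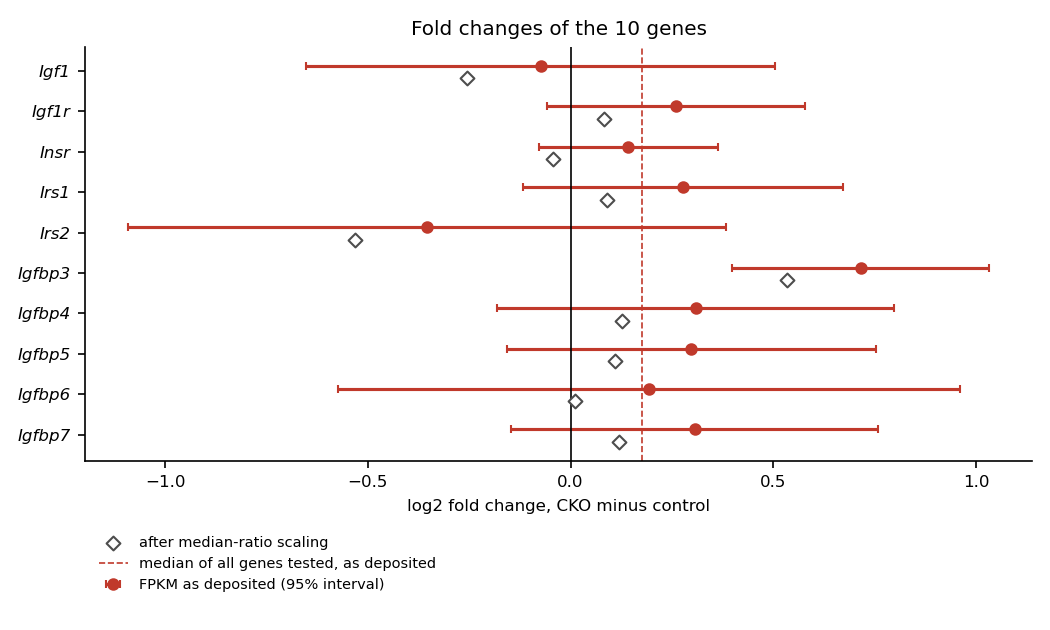
Log2 fold change (CKO minus control) of the 10 genes: red points with 95% intervals for FPKM as deposited, open diamonds after median-ratio scaling, solid line at 0 and dashed line at the median of all genes tested, 0.18. The interval of Igfbp3, 0.40 to 1.03, is the only one that does not reach 0, and Insr is the only gene whose diamond lies across 0 from its point.

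The binding proteins made up the largest transcript pool of the 10 genes. The 5 transcripts summed to 75.9 ± 11.6 FPKM in controls (SD, n = 6) and 94.6 ± 12.9 FPKM in CKOs, and the ranges, 59.0 to 93.0 and 74.9 to 110 FPKM, overlapped. Of this sum, Igfbp5 held 49.6% in controls and 49.3% in CKOs, and Igfbp7 held 33.9% and 34.9%. The share of Igfbp3 was 3.11% ± 0.893 in controls and 4.07% ± 0.683 in CKOs, and these ranges overlapped too, with 2.22% to 4.47% and 3.35% to 5.22%.

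**Figure D3:**
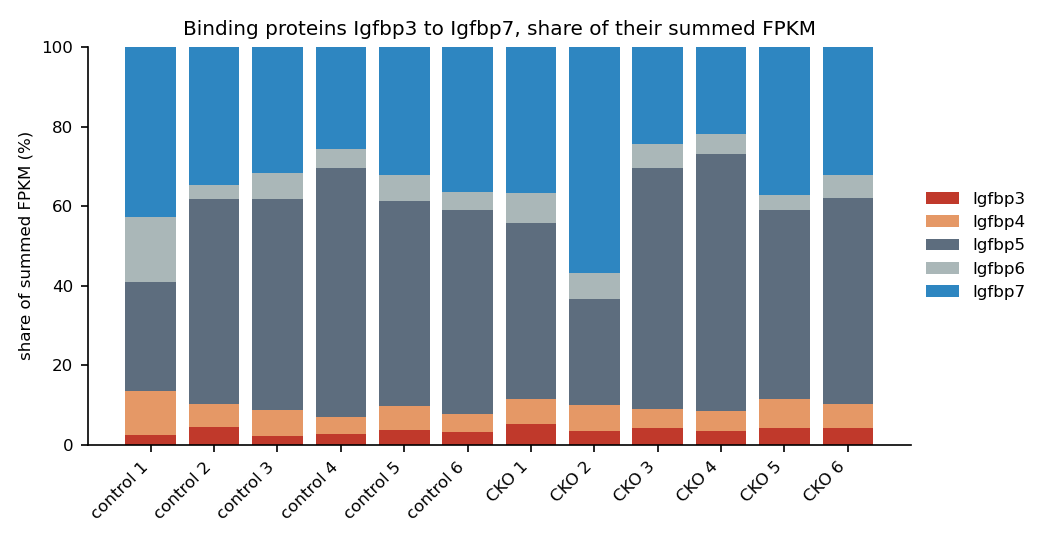
Share (%) of the summed FPKM of Igfbp3 to Igfbp7 held by each transcript, as stacked bars from 0 to 100%, in each of 6 controls and 6 CKOs. Igfbp5 and Igfbp7 fill most of every bar, and control 1 and CKO 2 differ from the other mice, with 27.4% and 26.7% for Igfbp5.

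The upstream windows of Igfbp3, the gene that passed the threshold, and of Igfbp4 and Igfbp6, whose levels moved together from mouse to mouse, are shown to set their sequence beside these patterns. Each is the 250 bases before the RefSeq transcript start, 5′ to 3′ on the strand of the gene, in GRCm38.p6, matched by symbol because the deposited files carry no positions. Of the 10 genes, 9 had such a window. Capitals mark a TATAAA match on either strand. Other TATA-like letters, such as the tatatat near the end of the Igfbp3 window, were not searched for and are not marked.
Igfbp3, chr11:7213924-7214173, minus strand: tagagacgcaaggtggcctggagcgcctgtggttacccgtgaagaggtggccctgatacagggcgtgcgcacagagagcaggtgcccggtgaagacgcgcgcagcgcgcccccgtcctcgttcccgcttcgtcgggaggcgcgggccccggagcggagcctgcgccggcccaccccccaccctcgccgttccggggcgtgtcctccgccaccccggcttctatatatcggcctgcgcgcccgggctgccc
Igfbp4, chr11:99040994-99041243, plus strand: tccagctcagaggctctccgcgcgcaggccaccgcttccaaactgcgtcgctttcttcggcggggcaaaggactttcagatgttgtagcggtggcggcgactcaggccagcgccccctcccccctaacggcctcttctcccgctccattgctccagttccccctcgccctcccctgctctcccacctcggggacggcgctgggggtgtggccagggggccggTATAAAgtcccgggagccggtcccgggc
Igfbp6, chr15:102143936-102144185, plus strand: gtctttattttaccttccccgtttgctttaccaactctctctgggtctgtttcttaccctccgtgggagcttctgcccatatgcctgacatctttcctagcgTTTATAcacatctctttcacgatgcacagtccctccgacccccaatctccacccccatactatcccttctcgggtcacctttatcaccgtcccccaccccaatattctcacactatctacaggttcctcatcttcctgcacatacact
The Igfbp3 window was 73.2% G or C with 32 CpG pairs, the Igfbp4 window 69.2% with 22, and the Igfbp6 window 49.6% with 7. TATAAA began at -28 in Igfbp4 and, on the opposite strand, at -148 in Igfbp6, and it was found in 12.4% of 32851 such windows. The GC box GGGCGG, in 32.7% of windows, was found in those of Igf1r, Irs1, Irs2 and Igfbp7. TTCNNNGAA, the letters read by STAT5, and GTAAACA, read by FoxO factors, are in 7.02% and 3.17% of windows and were in none of the 9. Motifs were searched on both strands, and a match is only a match of letters.

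Igfbp3 is the main carrier of IGF1 in blood. It ran from 1.68 through a median of 2.34 to 2.63 FPKM in controls and from 3.08 through 3.55 to 5.21 FPKM in CKOs. The groups did not overlap, and CKO 1 was the highest mouse. The mean rose from 2.29 ± 0.382 to 3.83 ± 0.782 FPKM (SD, n = 6). This was 1.64-fold on the log2(FPKM + 0.1) scale, with a 95% interval of 1.32 to 2.04, a log2 fold change of 0.72 ± 0.15 (SE) and an adjusted P of 0.0215 in limma. After median-ratio scaling the difference was 0.53 with an adjusted P of 0.132 and an unadjusted P of 0.00507. The call was held in 9 of 12 fits that each left out 1 mouse. The adjusted P was 0.0580 without control 4, 0.0565 without CKO 1 and 0.0588 without CKO 3.

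Igfbp3 is known to be made by stromal and vascular cells, so lists of their markers are given beside it. Fibroblast markers summed to between 277 and 461 FPKM in CKOs and between 203 and 259 FPKM in controls 2 to 6, but to 772 FPKM in control 1, where Igfbp3 was at 2.12 FPKM. Of the 9 fibroblast markers, 0 passed the adjusted threshold and 2 were higher by unadjusted P, where 18.1% of all genes were. Without control 1, 8 of the 9, all but Col1a1, were higher by adjusted P, from 0.00377 to 0.0436 in limma, in a fit that called 8.56% of all genes higher. Of 8 endothelial markers, 0 passed either threshold, and 0 passed the adjusted threshold without control 1. They summed to between 35.2 and 51.7 FPKM in controls and 34.6 and 59.7 FPKM in CKOs. Of 7 pericyte and smooth muscle markers, 0 passed the adjusted threshold, with or without control 1. By unadjusted P, 1 of the 7 was higher, where 18.1% of all genes were. These markers summed to between 54.0 and 94.3 FPKM in controls and 58.9 and 81.9 FPKM in CKOs. No marker of these lists was at 0 in any mouse. The part of these cells in the level of Igfbp3 was not tested.

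Igfbp4 encodes a binding protein that mainly restrains IGF action. It ran from 3.31 through a median of 3.75 to 10.5 FPKM in controls and from 4.72 through 5.53 to 6.499 FPKM in CKOs. Control 1 held the highest value of all 12 mice, and the next control was 4.86 FPKM. With all mice the log2 fold change was 0.31 ± 0.23 (SE; adjusted P = 0.457, limma). Without control 1 it was 0.55 ± 0.12 (SE), with an adjusted P of 0.0166 in limma, and 5 of 6 CKOs were above every other control. That fit called 8.56% of all genes higher, against 2.02% with all mice. In every other fit that left out 1 mouse, the adjusted P of Igfbp4 was between 0.457 and 0.667. The fibroblast markers given above, 8 of 9 of which also passed without control 1, put all 6 CKOs above controls 2 to 6, and their part in this difference was not tested.

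Igfbp6 encodes a binding protein with a preference for IGF2. It ran from 2.05 through a median of 4.11 to 15.3 FPKM in controls and from 2.84 through 5.69 to 7.47 FPKM in CKOs. Control 1 was again the highest of the 12 mice, and the next control was at 5.06 FPKM. Over all mice the difference was 0.19 ± 0.36 on the log2 scale (SE; adjusted P = 0.788, limma), and without control 1 it was 0.53 with an adjusted P of 0.165.

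**Figure D4:**
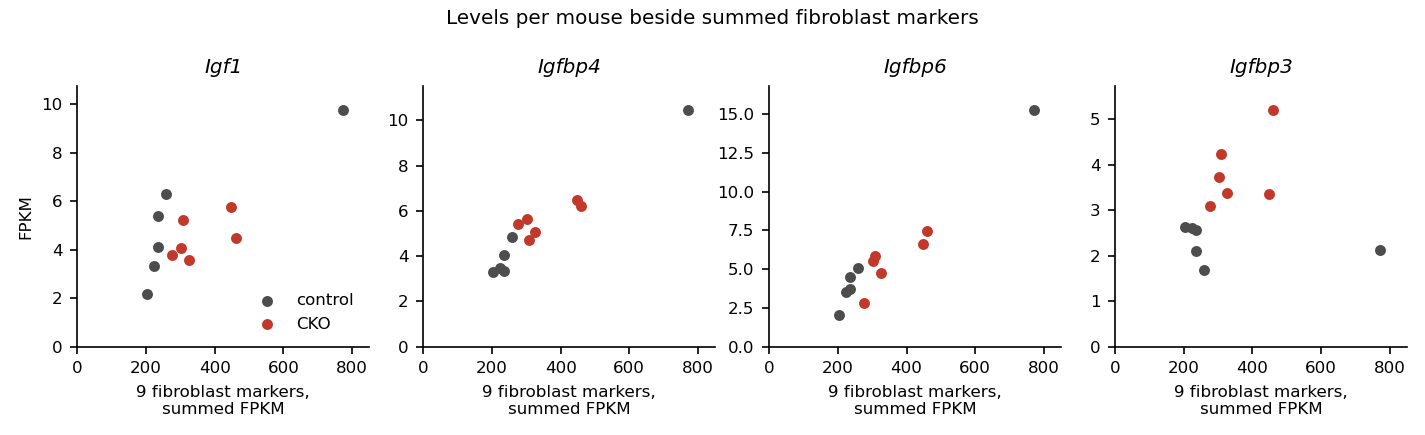
FPKM of Igf1, Igfbp4, Igfbp6 and Igfbp3 (vertical, linear from 0) against the summed FPKM of 9 fibroblast markers (horizontal) in each control (grey) and CKO (red). Control 1, at 772 FPKM of markers, has the highest Igf1, Igfbp4 and Igfbp6, whereas its Igfbp3 of 2.12 FPKM lies within the other controls.

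Control 1 had the highest summed fibroblast, macrophage, tendon, and pericyte and smooth muscle markers of all mice. Its fast myofiber markers, at 39301 FPKM, and its sum over all genes, 156610 FPKM, were also the highest. Its endothelial markers, at 38.3 FPKM, lay within the other controls. Its 8 macrophage markers found in the files summed to 51.3 FPKM, against 12.8 to 21.8 FPKM in the other controls and 17.4 to 31.2 FPKM in CKOs. Its tendon markers summed to 55.8 FPKM, against at most 29.2 FPKM in other controls and 33.2 FPKM in CKOs. Its pericyte and smooth muscle markers summed to 94.3 FPKM, against at most 77.6 FPKM in other controls and 81.9 FPKM in CKOs. Its Igfbp7 was the highest control value and its Igfbp5, Igf1r and Insr were the lowest.

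Among the binding protein transcripts, Igfbp5 had the highest mean in both groups, but Igfbp7 was above it in control 1 and CKO 2. Igfbp5 ran from 25.5 through a median of 37.6 to 50.1 FPKM in controls and from 26.8 through 43.8 to 70.9 FPKM in CKOs. CKO 3 and CKO 4 lay above every control and the other 4 CKOs within the control range. Its difference was 0.30 ± 0.21 on the log2 scale (SE; adjusted P = 0.442, limma).

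Igfbp7, a related protein of blood vessels that binds IGFs weakly, ran from 20.5 through a median of 23.0 to 39.7 FPKM in controls and from 24.1 through 27.4 to 57.0 FPKM in CKOs. Only CKO 2 was above all controls, and that mouse also had the lowest Igfbp5 of the CKOs and the highest endothelial marker sum, 59.7 FPKM. The log2 fold change was 0.31 ± 0.21 (SE; adjusted P = 0.426, limma). Without CKO 2 it was 0.13, and without control 1 it was 0.44.

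Within the groups, members varied together in part. After subtraction of the group means, Igfbp4 and Igfbp6 had a Pearson correlation of 0.87 (Spearman 0.79) over the 12 mice, which was 0.59 without control 1. Igf1 and Igfbp6 had 0.86 (Spearman 0.82), and 0.74 without control 1. Other pairs ran in opposite directions. Irs2 had -0.73 with Igf1 (Spearman -0.77) and -0.71 with Igfbp4 (Spearman -0.76), which were -0.63 and -0.76 without control 1. Igfbp5 and Igfbp7 had -0.72 (Spearman -0.62), and -0.66 without control 1. Among all genes, the pattern of Igfbp4 was most like those of Ddr2, Sema3b and Adamts2, at 0.99, 0.97 and 0.97, and without control 1 these were 0.96, 0.93 and 0.82. Igfbp6 was most like Prg4, Add3 and Mmp2, at 0.97, 0.95 and 0.95, and without control 1 at 0.91, 0.86 and 0.87. Ddr2 encodes a collagen receptor, and Adamts2 and Mmp2 encode proteases that act on collagens.

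The pattern of Igfbp3 followed other genes, namely Acss1, Slc25a22 and Tnip1, at correlations of 0.94, 0.87 and 0.83, and leaving out control 1 changed none of these by more than 0.01. Igf1 was most like Ap4b1, Shfm1 and Tmem219, each at 0.93. Igf1r was most like Mier2, Sh3rf2 and Nfix (0.94, 0.91 and 0.90) and Insr most like Rcan2, Rab11fip3 and Ncoa5 (0.96, 0.93 and 0.90). Irs1 was most like Mon1a, Myf5 and Cep295 (0.94, 0.93 and 0.92), where Myf5 marks muscle stem cells. Irs2 was most like Tmem8b, Abi3 and Nr4a1 (0.92, 0.89 and 0.88), Igfbp5 like Phf2, Sptb and Mypn (0.93, 0.91 and 0.90), and Igfbp7 like Ccnd1, Tmsb4x and Hist1h1a (0.94, 0.93 and 0.93). These are the highest of 12695 correlations over the same 12 libraries, which share depth and tissue makeup, and they are given as a description.

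The rest of the pathway was read from 104 other genes in 9 lists, of which 96 could be tested. By adjusted P, 3 of the 96 rose in CKOs and 0 fell, that is Deptor, Inppl1 and Hras, where 2.02% of all genes rose. By unadjusted P, 18 of the 96 were higher, close to the share of 18.1% among all genes. Another 4 were lower, where 1.76% of all genes were. The median log2 fold change was 0.15, against 0.18 over all genes. After median-ratio scaling none passed the adjusted threshold, and the median was -0.03. By unadjusted P, 9 were then higher and 16 lower, where 6.63% and 7.44% of all genes were. In the deposited FPKM every CKO was above every control for 4 of the 96, an arrangement found for 2.23% of all genes.

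**Figure D5:**
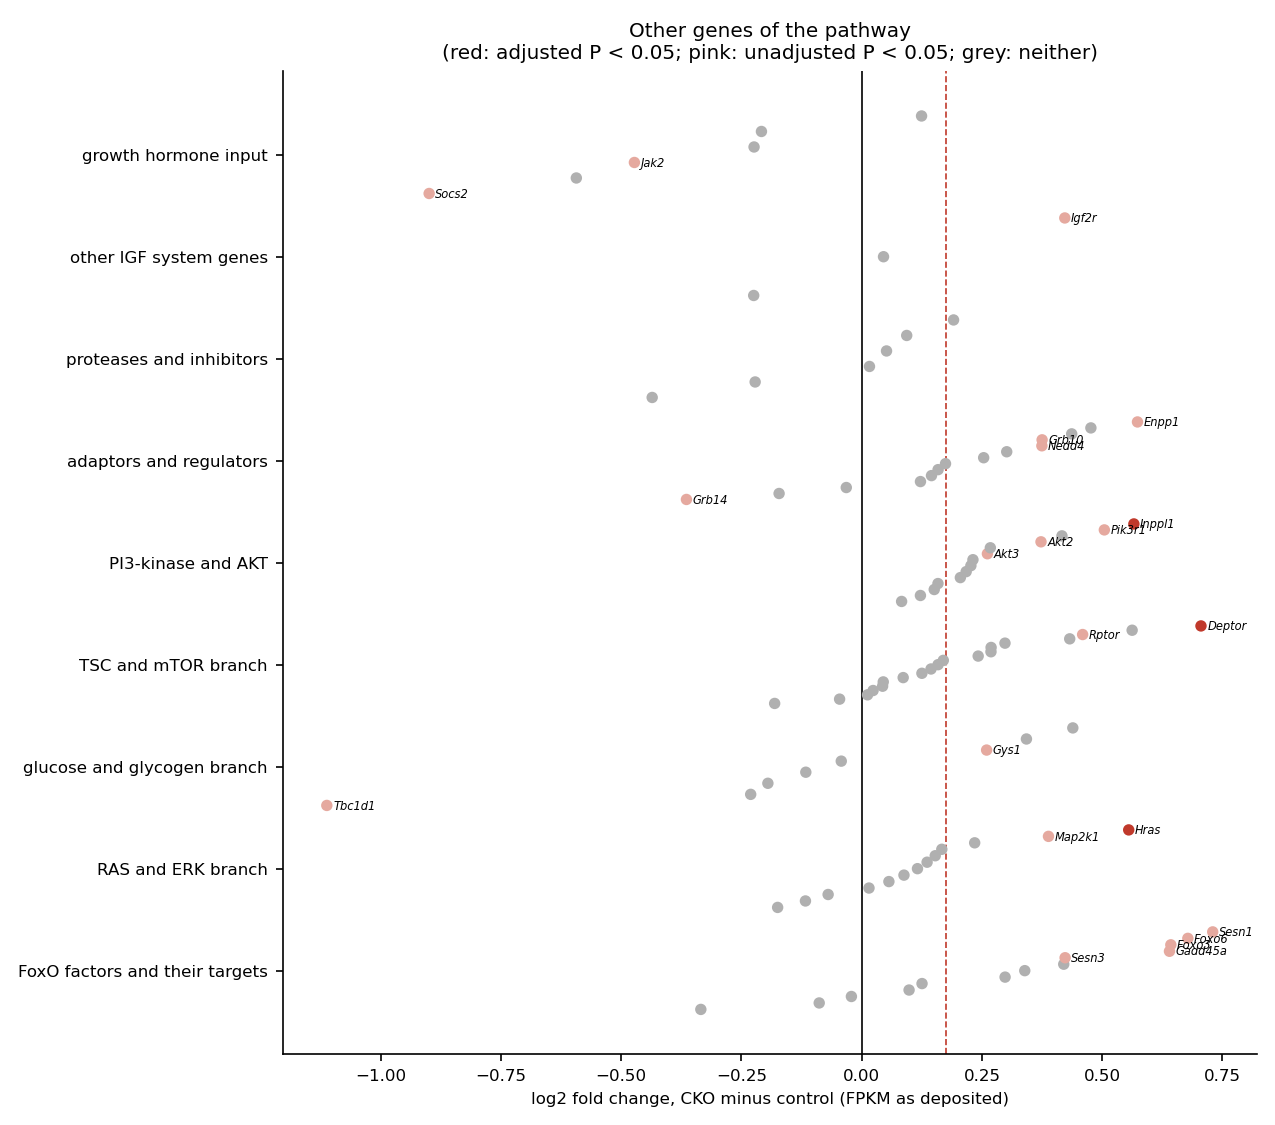
Log2 fold change (CKO minus control, FPKM as deposited) of the 96 tested genes of 9 pathway lists, 1 row per list, with a solid line at 0 and a dashed line at the median of all genes, 0.18. Deptor, Inppl1 and Hras are the 3 red points past the adjusted threshold, and 5 of the 6 genes of growth hormone input lie left of 0.

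Growth hormone input, which drives Igf1 transcription, held 6 genes. None passed the adjusted threshold, and the median was -0.35. Fold changes were negative for 5 of 6, where 77.9% of all genes had positive ones. Socs2, the feedback inhibitor induced by growth hormone, ran from 1.99 through a median of 3.09 to 4.88 FPKM in controls and from 0.929 through 1.36 to 3.35 FPKM in CKOs. In 4 of 6 CKOs it was below every control, and CKO 4 and CKO 5 lay within the control range. Its log2 fold change was -0.90 ± 0.31 (SE), with an unadjusted P of 0.00992 and an adjusted P of 0.130 in limma. Alternative limma fits gave adjusted P-values of 0.0207 with the replicate number as a block and 0.0303 with sample weights. Those fits called 40 and 115 of all genes lower, against 34 above.

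Jak2, the kinase bound to the growth hormone receptor, ran from 10.5 to 16.4 FPKM in controls and from 6.42 to 14.2 FPKM in CKOs, with a log2 fold change of -0.47 and an adjusted P of 0.183 in limma. The same 2 mice, CKO 4 and CKO 5, had the highest CKO values. Ghr, the receptor, had 18.8 ± 0.606 FPKM as the control mean and 16.4 ± 2.28 FPKM in CKOs, with a log2 fold change of -0.21 and an adjusted P of 0.254 in limma. After median-ratio scaling all 6 genes had negative fold changes, where the median over all genes was 0.0079. Ghr, Jak2, Stat5b and Socs2 were then lower by unadjusted P, where 7.44% of all genes were. Their adjusted P ran from 0.0961 to 0.148 in limma.

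Of the other IGF ligands, receptors and carriers, Igfbp1, Igfbp2 and Igfbpl1 were listed at 0 in all 12 mice, and Insrr did not pass the filter. Igf2, the second ligand, was 3.47 ± 0.686 FPKM in controls (SD, n = 6) and 3.73 ± 1.31 FPKM in CKOs (adjusted P = 0.927, limma), and its log2 fold change of 0.05 turned to -0.14 under median-ratio scaling. Igf2r, which clears IGF2 from the cell surface, was 8.57 ± 1.23 FPKM in controls and 11.5 ± 1.65 FPKM in CKOs, and 5 of 6 CKOs were above every control. Its log2 fold change was 0.42 ± 0.12 (SE; adjusted P = 0.0777, limma). Igfals, the partner of Igfbp3 in the circulating complex, was near the detection limit, at 0.135 ± 0.0872 and 0.115 ± 0.126 FPKM.

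Proteases and inhibitors that act on the binding proteins or on insulin had 0 of 6 tested genes past either threshold and a median of 0.03. After median-ratio scaling 5 of 6 were negative with a median of -0.15, and 0 passed the adjusted threshold. Stc1 and Adamts1 were then lower by unadjusted P (0.0496 and 0.0308, limma), where 7.44% of all genes were. Pappa, which cleaves Igfbp4, was at 0.186 ± 0.0925 FPKM in controls (SD, n = 6) and 0.218 ± 0.0494 FPKM in CKOs. Stc1, an inhibitor of that protease, was at 0.245 ± 0.105 and 0.152 ± 0.0561 FPKM, and Adamts1 at 7.52 ± 1.23 and 6.55 ± 1.63 FPKM. Their adjusted P-values in limma were 0.660, 0.351 and 0.460.

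Among receptor adaptors and negative regulators, 0 of 14 passed the adjusted threshold. By unadjusted P, 3 were higher and 1 lower, where 18.1% and 1.76% of all genes were. Nedd4, a ubiquitin ligase, was 44.1 ± 5.92 FPKM in controls (SD, n = 6) and 57.1 ± 6.61 FPKM in CKOs (log2 fold change 0.37, adjusted P = 0.0826, limma). Enpp1, which inhibits the insulin receptor, was 0.706 ± 0.248 and 1.06 ± 0.137 FPKM (0.57, adjusted P = 0.130). Grb10, an adaptor that restrains both receptors, was 5.94 ± 1.25 and 7.76 ± 1.63 FPKM (0.38, adjusted P = 0.209).

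In the list of PI3-kinase and AKT, all 14 tested genes had positive fold changes, where 77.9% of all genes did. Their median was 0.23, against 0.18 over all genes. After median-ratio scaling 11 of 14 were positive and the median was 0.05, against 0.0079 over all genes. Inppl1, a phosphatase that degrades the lipid product of PI3-kinase, ran from 6.69 through a median of 7.86 to 9.37 FPKM in controls and from 9.47 through 12.1 to 14.2 FPKM in CKOs. The groups did not overlap, and all CKO values were likewise higher for 2.23% of all genes. Inppl1 rose by 0.57 ± 0.12 on the log2 scale (SE; adjusted P = 0.0216, limma). The call was held in 7 of 12 fits that left out 1 mouse, with adjusted P up to 0.0630, and after median-ratio scaling the adjusted P was 0.193. Without control 4, control 5, CKO 1, CKO 3 or CKO 6 it was between 0.0554 and 0.0630.

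Pik3r1, a regulatory subunit of PI3-kinase, was 7.74 ± 2.44 FPKM in controls (SD, n = 6) and 10.8 ± 2.34 FPKM in CKOs (log2 fold change 0.50, adjusted P = 0.211, limma). Akt2, the AKT kinase of insulin-stimulated glucose uptake, was 5.57 ± 0.774 and 7.35 ± 1.67 FPKM (0.37, adjusted P = 0.194).

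In the TSC and mTOR branch, 1 of 19 genes passed the adjusted threshold. Fold changes were positive for 17 of 19 as deposited, where 77.9% of all genes were positive, with a median of 0.16. After median-ratio scaling 8 of 19 were positive with a median of -0.02, and 0 passed the adjusted threshold. Deptor, which binds mTOR and inhibits it, ran from 3.77 through a median of 5.01 to 5.69 FPKM in controls and from 6.72 through 7.57 to 10.6 FPKM in CKOs. The groups did not overlap, and all CKO values were likewise higher for 2.23% of all genes. Deptor rose by 0.71 ± 0.13 on the log2 scale (SE; adjusted P = 0.0121, limma), and this call was held in all 12 fits that left out 1 mouse. After median-ratio scaling it was 0.52 with an adjusted P of 0.0600. Rptor, a subunit of mTOR complex 1, was 1.53 ± 0.259 FPKM (SD, n = 6) and 2.15 ± 0.337 FPKM (0.46, adjusted P = 0.104). Rps6kb1, the S6 kinase below it, was 4.75 ± 0.426 and 5.67 ± 0.911 FPKM (0.24, adjusted P = 0.265).

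In the glucose and glycogen branch, 0 of 8 genes passed the adjusted threshold, with a median of -0.08. By unadjusted P, 1 was higher and 1 lower, where 18.1% and 1.76% of all genes were. After median-ratio scaling the median was -0.27. By unadjusted P, 0 were then higher and 5 lower, where 6.63% and 7.44% of all genes were. Tbc1d1, which holds glucose transporter vesicles inside the fiber until it is phosphorylated, ran from 11.9 through a median of 20.1 to 28.5 FPKM in controls and from 4.30 through 9.79 to 22.2 FPKM in CKOs. Of the CKOs, 5 lay below every control and CKO 5 lay within the control range. The log2 fold change was -1.11 ± 0.31 (SE; adjusted P = 0.0760, limma), and Tbc1d4, its relative, was 0.952 ± 0.144 FPKM (SD, n = 6) and 1.41 ± 0.617 FPKM (0.44, adjusted P = 0.285). Gys1, muscle glycogen synthase, ran from 29.2 to 34.0 FPKM in controls and from 34.3 to 41.7 FPKM in CKOs, without overlap (0.26, adjusted P = 0.107). All CKO values were likewise higher for 2.23% of all genes, and the median log2 fold change over all genes was 0.18.

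In the RAS and ERK branch, 1 of 13 genes passed the adjusted threshold. Fold changes were positive for 10 of 13 as deposited, where 77.9% of all genes were positive, with a median of 0.12. After median-ratio scaling 3 of 13 were positive with a median of -0.07, and 0 passed the adjusted threshold. Hras, a RAS protein, ran from 4.95 through a median of 5.35 to 7.15 FPKM in controls and from 6.57 through 8.40 to 10.5 FPKM in CKOs. The groups overlapped through control 1, CKO 2 and CKO 4. It rose by 0.56 ± 0.13 on the log2 scale (SE; adjusted P = 0.0372, limma), and the call was held in 4 of 12 fits that left out 1 mouse, those without control 1, CKO 2, CKO 4 or CKO 5, with adjusted P up to 0.0936 in the others. After median-ratio scaling the adjusted P was 0.0961. Map2k1 and Braf, kinases of the same cascade, had log2 fold changes of 0.39 and 0.23 (adjusted P = 0.126 and 0.266). Braf did not overlap between the groups, with 1.05 to 1.369 and 1.371 to 1.54 FPKM. All CKO values were likewise higher for 2.23% of all genes, and the 0.23 of Braf was near the median of 0.18 over all genes.

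Among FoxO factors and their targets, 0 of 13 passed the adjusted threshold, with a median of 0.34. By unadjusted P, 5 of 13 were higher, where 18.1% of all genes were. Foxo3 was 1.57 ± 0.379 FPKM in controls (SD, n = 6) and 2.49 ± 0.499 FPKM in CKOs, with 5 of 6 CKOs above every control (log2 fold change 0.64, adjusted P = 0.0762, limma). Sesn1 and Gadd45a, stress-induced targets, were 0.73 and 0.64 higher on the log2 scale (adjusted P = 0.0830 and 0.116). After median-ratio scaling the median of the list was 0.15 and 3 genes were higher by unadjusted P, where 6.63% of all genes were.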

How the data were processed

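Tibialis anterior RNA of 6 control and 6 CKO mice was depleted of ribosomal RNA (ScriptSeq Complete Gold) and sequenced. The authors aligned reads with bowtie2 and TopHat2 2.0.10 with at most 2 mismatches, discarded reads mapping to several places, and computed the deposited FPKM with Cufflinks 2.1.1 on mm9 (versions and build from the submitters' processing notes; the annotation is not given in the sources used here). Genes were identified by symbol only. Of 23950 rows, 27 with a date as symbol were left out. The number of reads per library is unknown, so no counting interval was given.

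The fit covered genes of 0.1 FPKM or more in 6 or more mice and used limma 3.58.1 (R 4.3.3; trended prior variance) on log2(FPKM + 0.1), with Benjamini-Hochberg adjustment over 12695 genes. A fold change on this scale understates that of low genes. The fit was tested on simulated data. The 2 ratios were compared by exact permutation. Groups came from the labelled genotype. Alternatives changed the pseudocount (1) or the filter (1 FPKM, or no filter), applied quantile normalization or median-ratio scaling, added a replicate block or sample weights, dropped the trend, or left out each mouse. The members and lists were chosen with earlier results of these data known. The text names all 10 members, from each pathway list the genes past the adjusted threshold and the 3 with the smallest P, and for each member the 3 genes with the most similar pattern. A few others were named after their values were seen: Stat5b, Igfbp1, Igfbp2, Igfbpl1, Insrr and the markers Col1a1, Pax7, Myf5, Calcr, Vcam1 and Chrdl2.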

Additional observations from a re-analysis of the deposited data

Results flagged for a closer look

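Among 37 genes named above, each group of 6 mice was examined for a single value far from the others by Dixon's ratio at the 95% level, and 7 of 74 groups held one. Chance flags about 1 in 20 groups. Control 1 held 4 of the 7, with Igfbp4 at 10.5 FPKM (next control 4.86), Igfbp6 at 15.3 FPKM (next 5.06), Map2k1 at 11.8 FPKM (next 8.45) and Pappa at 0.361 FPKM (next 0.187). Control 6 held Irs2 at 4.31 FPKM (next control 1.97). CKO 5 held Tbc1d1 at 22.2 FPKM (next CKO 10.6) and Igfals at 0.356 FPKM (next 0.113). The log2 fold change of Igfbp4 was 0.31 with control 1 and 0.55 without it, and that of Irs2 was -0.35 with control 6 and -0.06 without it. The causes were not tested.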

How the results depend on the processing

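The pseudocount of 1, the filter at 1 FPKM and the fit without a trend moved no count by over 1.5 times. Testing without a filter gave 170 genes higher by adjusted P. Median-ratio scaling and quantile normalization gave 97 and 101 higher and 90 and 68 lower by adjusted P, and 842 and 810 higher and 944 and 837 lower by unadjusted P. Under both, 0 of the 10 members passed by adjusted P, with Igfbp3 at 0.53 in each, Insr at -0.042 and -0.015, and Igf2 at -0.14 and -0.13. Pathway genes higher by adjusted P were 0 and 1, and by unadjusted P 9 and 10 were higher and 16 and 12 lower. Sample weights gave 1400 higher and 115 lower by adjusted P and 3704 higher by unadjusted P, with 2 members higher by unadjusted P, 14 pathway genes higher and 2 lower by adjusted P, and Igf1 at 0.057. The cause was not tested.

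With the replicate number as a block, 0 members passed by adjusted P and 2, Igfbp3 and Igfbp5, by unadjusted P. Igfbp3 kept its log2 fold change of 0.72 (adjusted P = 0.0520, limma). Of the pathway genes, 5 were then higher and 1, Socs2, was lower by adjusted P. The numbers were not used as pairs: same-number mice had correlations of their deviations from -0.09 to 0.16 over 6 pairs, and 2 of 6 controls correlated best with their own number.

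Leaving out 1 mouse gave 88 to 1075 genes higher and 18 to 69 lower by adjusted P, and 1724 to 3416 higher and 193 to 320 lower by unadjusted P. The highest counts higher came without control 1 and the lowest without CKO 1, and by adjusted P at most 141 were higher without control 2, 4, 5 or 6 or without CKO 1, 3 or 6. Members higher were 0 to 2 by adjusted P (0 without control 4, CKO 1 or CKO 3, and 2 without control 1) and 1 to 4 by unadjusted P (4 without control 1, 3 without CKO 2). Pathway genes were 1 to 9 higher by adjusted P (9 without control 1, and 1 without control 4, control 5, CKO 1, CKO 3 or CKO 6) and 0 to 1 lower (1 without control 1 or CKO 5), and 15 to 23 higher and 2 to 4 lower by unadjusted P. Log2 fold changes ran from -0.29 to 0.14 for Igf1, 0.62 to 0.77 for Igfbp3, 0.22 to 0.55 for Igfbp4, -0.034 to 0.53 for Igfbp6 and -0.092 to 0.22 for Igf2, and the Irs1 to Irs2 ratio difference from 0.30 to 0.95. With 6 mice a group and unknown depth, differences of low transcripts such as Igfals and Pappa are limited in precision.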

Other observations

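Muscle stem cell and fat cell markers, which are outside the IGF and insulin lists, were examined as measures of tissue makeup. The 4 tested stem cell markers, Pax7, Myf5, Calcr and Vcam1, all had positive log2 fold changes, where 77.9% of all genes did. Their median was 0.89, and 0 passed the adjusted threshold. By unadjusted P, 4 of 4 were higher, where 18.1% of all genes were. After median-ratio scaling 3 of 4 were, where 6.63% of all genes were. Without control 1, 2 of the 4 were higher by adjusted P, in a fit that called 8.56% of all genes higher. The 5 stem cell markers listed summed to 1.26 to 2.60 FPKM in controls and 2.74 to 4.69 FPKM in CKOs. These sums did not overlap, but on its own each of the 5 markers overlapped between the groups. Vcam1 had the highest FPKM of the 5 in every mouse, and control 1 had the highest Vcam1 of the controls. How often sums over other gene lists are without overlap was not computed. Chrdl2 was at 0 in 4 mice. Retn, a fat cell hormone gene at 0 in 4 mice, all of them controls, had 0.0509 FPKM in controls and 0.456 FPKM in CKOs. It met the filter on low values only through the CKOs, which were all at 0.147 FPKM or more. Its call is therefore no independent support for a difference. It was the 1 of 4 tested fat cell markers that passed (adjusted P = 0.0322, limma), where 2.02% of all genes were higher. The call of Retn was held in 5 of 12 fits that left out 1 mouse, with adjusted P up to 0.0806. It was lost with a pseudocount of 1 (adjusted P = 0.0837), under quantile normalization (adjusted P = 0.0639) and without the filter (adjusted P = 0.0530). Without control 1, 2 of the 4 fat cell markers passed, in the fit that called 8.56% of all genes higher. Slow myofiber markers summed to 22.1 to 57.6 FPKM in controls and 30.3 to 322 FPKM in CKOs. CKO 6, CKO 1 and CKO 3 lay above every control, and the other 3 CKOs within the control range. Whether any of these levels bears on the IGF and insulin genes was not tested.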
